A study of Homo sapiens with 6 samples.

Results

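The heat shock proteins and chaperonins of OE19 cells were examined as 73 genes among the 13345 genes of the messenger RNA table. They were chosen by symbol, as the HSPA, HSPB, HSPD, HSPE, HSPH and HSP90 genes, the J-domain genes DNAJA, DNAJB and DNAJC, the chaperonin subunits CCT2 to CCT8 and TCP1, and the transcription factor gene HSF1. Some genes carry such a symbol without being a chaperone by that name, among them HSPBAP1 and HSPB11. By the known location of the protein, 42 genes were cytosolic or nuclear, 14 belonged to the endoplasmic reticulum (ER), 9 to mitochondria and 3 to vesicles or endosomes, and 5 were left unplaced. OE19 is an established cell line from an oesophageal adenocarcinoma. The study compared 3 samples transfected with an antisense inhibitor of miR-451a, made of locked nucleic acid, with 3 samples transfected with Negative Control A, an inhibitor of the same chemistry used as the control. Samples were numbered 1 to 3 by independent experiment. Whether these cultures had been irradiated is not stated.

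Chaperones bind unfolded proteins and help them to fold. HSP70 proteins work in cycles of ATP hydrolysis that J-domain proteins start and that nucleotide exchange factors, among them the HSP110 proteins, bring to an end, while HSP90 proteins act later on proteins that are nearly folded. The cytosol, the ER and the mitochondrial matrix each have their own HSP70, HSP90 and J-domain proteins, and chaperonins fold proteins inside a closed chamber. HSF1 switches on the cytosolic and mitochondrial genes when proteins unfold, and the unfolded protein response switches on the ER genes. Tumour cells often hold high levels of chaperones.

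Each response acts through its own promoter element, and these windows are shown because the elements were found in different chaperones. Each runs from 250 bases before an annotated start site of the gene to 50 after it, 5′ to 3′, in RefSeq on GRCh38.p14. Some genes have several start sites, with 35116 windows for 27305 genes, and a gene was counted if any of its windows matched. The start site is not always the outer end of the gene, and the windows shown for HSPA8, HSP90AA1 and HSPD1 lie inside the gene bounds. A window was found for 66 of the 73 genes. The ER stress element was searched on both strands as CCAAT, then 9 bases of any kind, then CCACG. It was present in 2 of the 13 ER genes with a window and in none of 38 cytosolic or 9 mitochondrial genes, against 0.0916% of 27305 genes with a window. The 2 genes were HSPA5 (chr9:125241294-125241593, minus strand) and HSP90B1 (chr12:103930160-103930459, plus strand), where capitals mark the element.
HSPA5: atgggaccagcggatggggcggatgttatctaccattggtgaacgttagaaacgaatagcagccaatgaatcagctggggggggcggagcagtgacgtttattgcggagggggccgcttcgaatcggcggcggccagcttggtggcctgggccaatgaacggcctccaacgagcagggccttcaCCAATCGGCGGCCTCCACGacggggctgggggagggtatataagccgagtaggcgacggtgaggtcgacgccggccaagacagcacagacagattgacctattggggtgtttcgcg
HSP90B1: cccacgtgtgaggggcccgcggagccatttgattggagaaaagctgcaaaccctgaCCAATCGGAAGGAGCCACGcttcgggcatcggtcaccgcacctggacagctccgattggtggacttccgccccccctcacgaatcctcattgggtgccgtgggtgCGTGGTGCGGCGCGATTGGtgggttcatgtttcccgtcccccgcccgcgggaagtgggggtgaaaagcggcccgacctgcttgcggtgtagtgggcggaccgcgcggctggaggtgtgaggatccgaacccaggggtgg
The heat shock element was searched on both strands in its form of 3 units, GAA, TTC and GAA or TTC, GAA and TTC with 2 bases of any kind between units, which contains the shorter form of 2 units. The longer form was present in 5 of 38 cytosolic genes (DNAJA1, DNAJB6, HSP90AA1, HSP90AB1 and HSPA8), in HSPD1 among 9 mitochondrial genes and in 0 of 13 ER genes, against 0.608% of all genes with a window. The windows of 3 of them are HSPA8 (chr11:123062087-123062386, minus strand), HSP90AA1 (chr14:102086995-102087294, minus strand) and HSPD1 (chr2:197499791-197500090, minus strand), with the element in capitals.
HSPA8: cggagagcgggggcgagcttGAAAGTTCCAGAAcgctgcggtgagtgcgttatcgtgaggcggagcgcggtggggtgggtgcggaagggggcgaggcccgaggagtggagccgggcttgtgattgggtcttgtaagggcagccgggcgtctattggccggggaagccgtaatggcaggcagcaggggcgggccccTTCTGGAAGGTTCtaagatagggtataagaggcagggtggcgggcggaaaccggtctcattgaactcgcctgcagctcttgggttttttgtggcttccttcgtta
HSP90AA1: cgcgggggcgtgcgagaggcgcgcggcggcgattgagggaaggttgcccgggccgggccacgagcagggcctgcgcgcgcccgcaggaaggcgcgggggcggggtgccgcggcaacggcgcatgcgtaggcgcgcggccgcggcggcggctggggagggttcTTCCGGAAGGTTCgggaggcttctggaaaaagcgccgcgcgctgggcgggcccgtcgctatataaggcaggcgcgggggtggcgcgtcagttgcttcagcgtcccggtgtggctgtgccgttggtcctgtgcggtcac
HSPD1: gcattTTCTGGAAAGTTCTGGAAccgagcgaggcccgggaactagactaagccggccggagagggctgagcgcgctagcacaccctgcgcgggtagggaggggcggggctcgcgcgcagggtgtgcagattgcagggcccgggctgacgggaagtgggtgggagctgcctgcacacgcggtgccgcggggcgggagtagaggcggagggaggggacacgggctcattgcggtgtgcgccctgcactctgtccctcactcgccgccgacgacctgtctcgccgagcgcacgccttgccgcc
In the HSPD1 window the capitals are 2 overlapping matches. The form of 2 units, GAANNTTC or TTCNNGAA, was present in 18 of 38 cytosolic, 3 of 9 mitochondrial and 0 of 13 ER genes, against 16.2% of all genes. A match describes the letters and does not show that a factor was bound. The search took exact letters within these windows only, so a gene without a match may still hold an element. HSPA1A, HSPA1B, HSPB1 and DNAJB1 matched the form of 2 units but not that of 3.

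The values are normalized signals that the authors had adjusted for gene length and GC content and scaled between samples. In each sample 15 genes share the top value, lower values also fall on steps, and the top step was 1.46 to 1.85 times the second. A change of 1 step among the most abundant genes is therefore a large fold. The whole numbers behind the values summed to between 14084387 and 18726440 per sample. All 6 epithelial markers were above the minimum mean of 10, against 1 of 5 fibroblast, 1 of 5 blood and 0 of 3 endothelial markers. Inhibitor sample 3 stood apart. In it, 16% of the 12723 genes tested differed over 2-fold from the median of the remaining 5 samples, against 3.4% and 2.41% in inhibitor samples 1 and 2 and 2.09%, 2.04% and 4.16% in controls 1, 2 and 3. In extracts of whole cultures, a change in which cells are present and a change in RNA per cell cannot be told apart.

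Of the 73 genes, 71 had a mean value of at least 10 and were tested. None passed the test of the inhibitor against the control. The limma test gave 0 genes at an adjusted p below 0.05, against 0% of the 12723 genes tested, and the smallest adjusted p of a chaperone gene was 0.899. Before adjustment, 0 of the 71 fell below 0.05, against 0.935% of all genes. DESeq2 and edgeR also gave 0 of the 71 before adjustment, against 1.96% and 1.28% of all genes. Leaving out inhibitor sample 2 raised this count in the limma test to 7 of the 71, against 10.7% of all genes, and leaving out inhibitor sample 3 raised it to 1, against 1.41%, with 0 after adjustment in both. The log2 difference, inhibitor minus control on the log2(value + 1) scale, was above 0 in 32 of the 71 (45.1%), against 49.4% of all genes. The median over the 71 was -0.04. The groups did not overlap in 5 genes (7.04%), against 5.61% of all genes. Of these, HSF1 and DNAJB1 were above the controls, where the background was 2.71%, and HSP90B1, HSPA5 and DNAJB14 were below them, where it was 2.9%. For HSP90B1 the lack of overlap rests on a pair of samples in which it has the shared top value, as given with its values. An exact permutation test of 3 against 3 samples cannot give a two-sided p below 0.1, and each of the 5 genes gave 0.1.

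**Figure D1:**
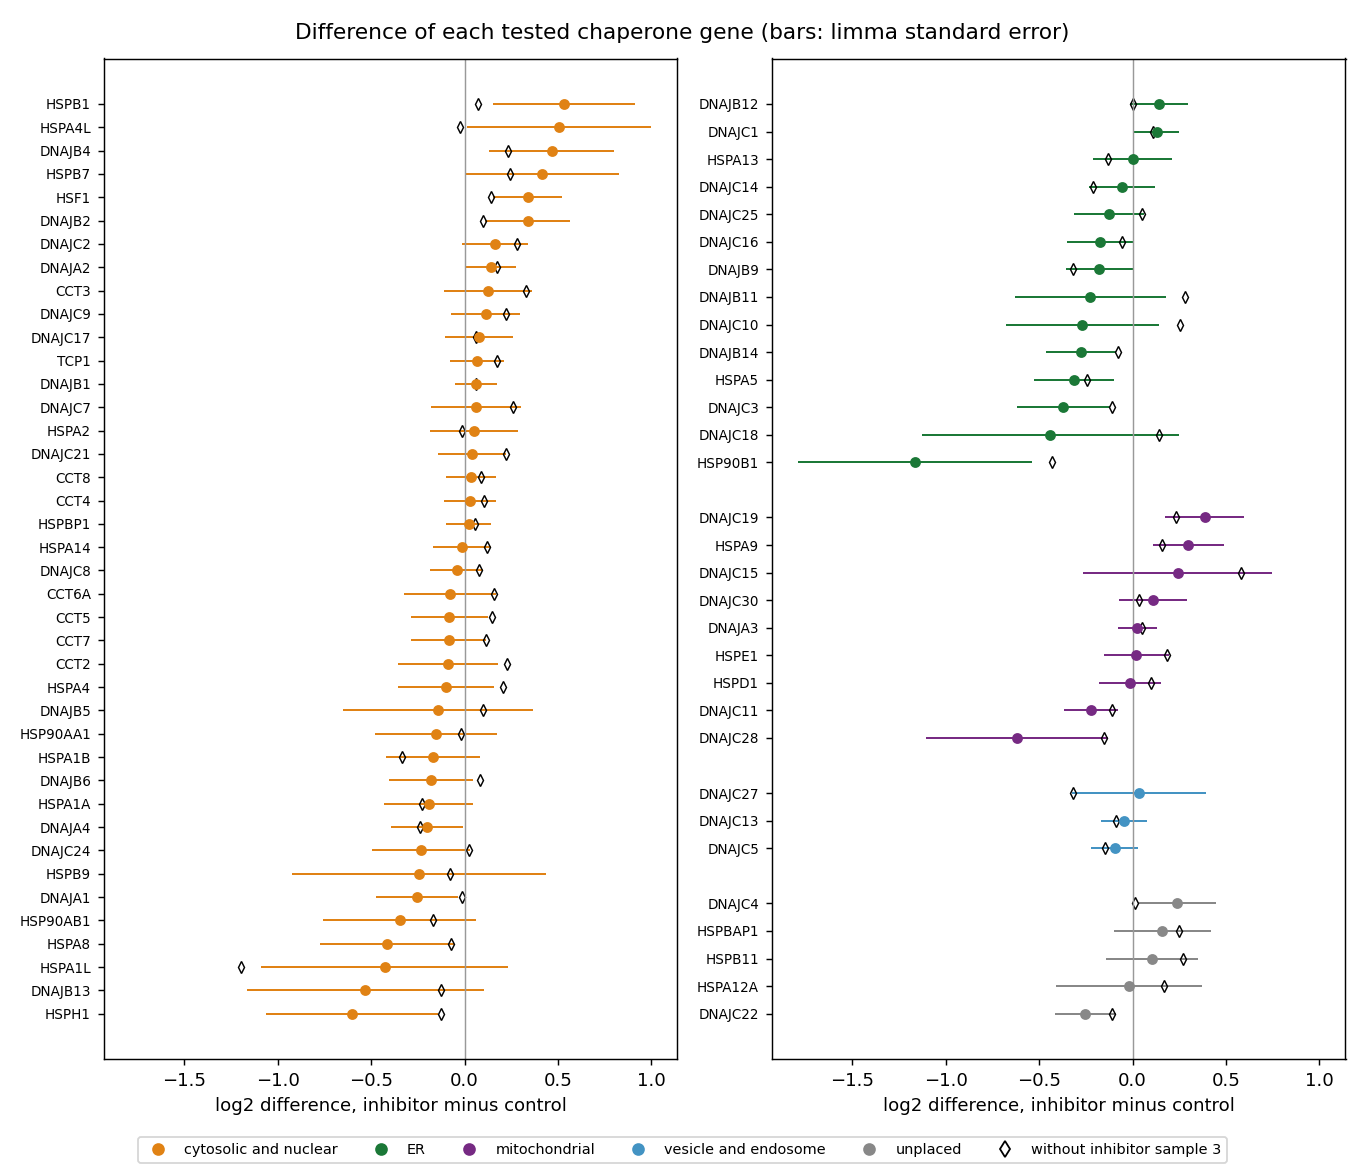
Log2 difference, inhibitor minus control, of each of the 71 chaperone genes tested, grouped by compartment (colour), with bars for the limma standard error. Open diamonds give the difference without inhibitor sample 3, and 11 of the 14 ER genes lie below 0 with all samples.

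HSF1, the master factor of the heat shock response (chromosome 8, 144291604 to 144314720), had 1723, 1784 and 2640.3 in the inhibitor samples, against 1552, 1706 and 1520.4 in the negative controls. Inhibitor sample 3 was far above the rest, and the other inhibitor samples lay just above the highest control. The log2 difference was 0.34 ± 0.18 (SE, limma adjusted p 0.899), and 0.14 without inhibitor sample 3. Its relative HSF2 lay on the other side, with 197, 159 and 153 in the inhibitor samples, against 208, 204 and 201 in the controls.

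Among the cytosolic HSP70 genes, HSPA8, the constitutive member (chromosome 11, 123057489 to 123062462), had 27529, 37332 and 15701 in the inhibitor samples, against 29249, 36946 and 35344 in the controls. Inhibitor samples 1 and 2 lay close to the controls and inhibitor sample 3 far below them, and the log2 difference of -0.41 ± 0.36 (SE, limma adjusted p 0.899) was -0.07 without it. HSPH1, an HSP110 protein that exchanges the nucleotide of HSP70, had 3970.5, 6301 and 1859.8 in the inhibitor samples, against 3584, 6065 and 7490.4 in the controls. Experiment 1 was low and experiment 2 was high in both groups, while experiment 3 held both the lowest and the highest value. The log2 difference of HSPH1 was -0.60 ± 0.46 (SE, limma adjusted p 0.899), or -0.13 without inhibitor sample 3, and within experiments 1, 2 and 3 it was 0.15, 0.06 and -2.01. HSPA4, of the same class, had 3455, 2928 and 1685 in the inhibitor samples, against 2791, 2832 and 2649 in the controls, with a log2 difference of -0.10. Leaving out inhibitor sample 3 gave 0.21.

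The stress-inducible HSPA1A and HSPA1B lie side by side on chromosome 6 (31815543 to 31817942 and 31827738 to 31830254). Their longest open reading frames differ by 4 of 1926 bases, and 69.6% of all stretches of 150 bases in the HSPA1A transcript recur in that of HSPA1B. Reads can be split between the copies, so each value is uncertain. HSPA1A had 1001, 1529 and 1336 in the inhibitor samples, against 1117, 1408 and 1938 in the controls. HSPA1B had 826, 1213 and 1413 in the inhibitor samples, against 979.7, 1285 and 1598 in the controls. Both copies were lowest in experiment 1 in both groups, and the groups overlapped. Their log2 differences were -0.19 ± 0.24 and -0.17 ± 0.25 (SE), or -0.23 and -0.33 without inhibitor sample 3. HSPA1L, a relative in the same cluster, was low throughout, with 8.26, 9.11 and 46.7 in the inhibitor samples, against 20.5, 20.3 and 22.7 in the controls. The log2 difference of HSPA1L was -0.43, or -1.20 without inhibitor sample 3. It is the 1 chaperone gene below 0.05 before adjustment in that fit (limma p 0.011, adjusted p 0.974). HSPA4L, a further HSP110 gene, had 85.7, 138 and 331 in the inhibitor samples, against 75.5, 128 and 139.5 in the controls. The log2 difference of HSPA4L was 0.51 and turned to -0.03 without inhibitor sample 3.

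The cytosolic HSP90 genes were among the most abundant of the table. HSP90AB1, the constitutive form, ranked 12 by mean value among the 13345 genes, and HSP90AA1, the inducible form, ranked 60. HSP90AB1 had 52019, 75479 and 43442 in the inhibitor samples, against 90232, 80468 and 48396 in the controls. The groups overlapped, and the gene stood within the top 3 steps of the scale in all 6 samples. HSP90AA1 had 27549, 25627 and 20077 in the inhibitor samples, against 29279.8, 36970.0 and 18008 in the controls. The log2 differences were -0.35 ± 0.41 for HSP90AB1 and -0.15 ± 0.33 for HSP90AA1 (SE, limma adjusted p 0.899 and 0.921). Without inhibitor sample 3 they were -0.17 and -0.02. In experiment 2 HSP90AB1 shared the top value of both samples, so that 75479 against 80468 is the difference between those top values.

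DNAJB1, a heat-inducible J-domain partner of HSP70, was steady, with 3067, 2989 and 3027 in the inhibitor samples, against 2951, 2959 and 2799 in the controls. The groups did not overlap, but the log2 difference was 0.06 ± 0.11 (SE, limma adjusted p 0.911). DNAJA1 had 2527, 2546 and 1536 in the inhibitor samples, against 2256, 2678 and 2783 in the controls, and the log2 difference was -0.26, or -0.01 once inhibitor sample 3 was left out. DNAJB2, whose protein links HSP70 clients to ubiquitin, had 533, 405 and 764 in the inhibitor samples, against 458, 417 and 428 in the controls (log2 difference 0.34 ± 0.23, SE, or 0.10 without inhibitor sample 3). HSPB1, the small heat shock protein HSP27, had 2468, 1841 and 5571 in the inhibitor samples, against 2400.0, 1918 and 1808 in the controls. The high value belonged to inhibitor sample 3 alone, and the log2 difference of 0.53 ± 0.38 (SE, limma adjusted p 0.899) was 0.07 without it. HSPB8, a small heat shock protein of protein quality control, fell under the minimum mean and was not tested, with 1.03, 1.012 and 37.4 in the inhibitor samples, against 1.64, 2.14 and 0 in the controls. DNAJB13 and HSPB9, known from testis, had values of 5.19 to 21.3 and 7.27 to 11.4 in the inhibitor samples, against 9.03 to 24.8 and 4.27 to 27.9 in the controls.

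Over the 40 cytosolic and nuclear genes tested, 19 lay above the controls on average and 21 below, and the median log2 difference was -0.03, against -0.00 over all genes. Without inhibitor sample 3 it was 0.08, with 27 of 40 higher, against 6359 of all 12723 genes. The 6 genes with a match to the heat shock element of 3 units, HSPD1 included, had log2 differences of -0.41 to -0.02. All were below 0, as were 6443 of all 12723 genes. Without inhibitor sample 3 the 6 ran from -0.17 to 0.10, and 2 of them were above 0. Of the 19 tested genes with the form of 2 units, 8 were above 0 and 11 below, from -0.43 to 0.53.

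**Figure D2:**
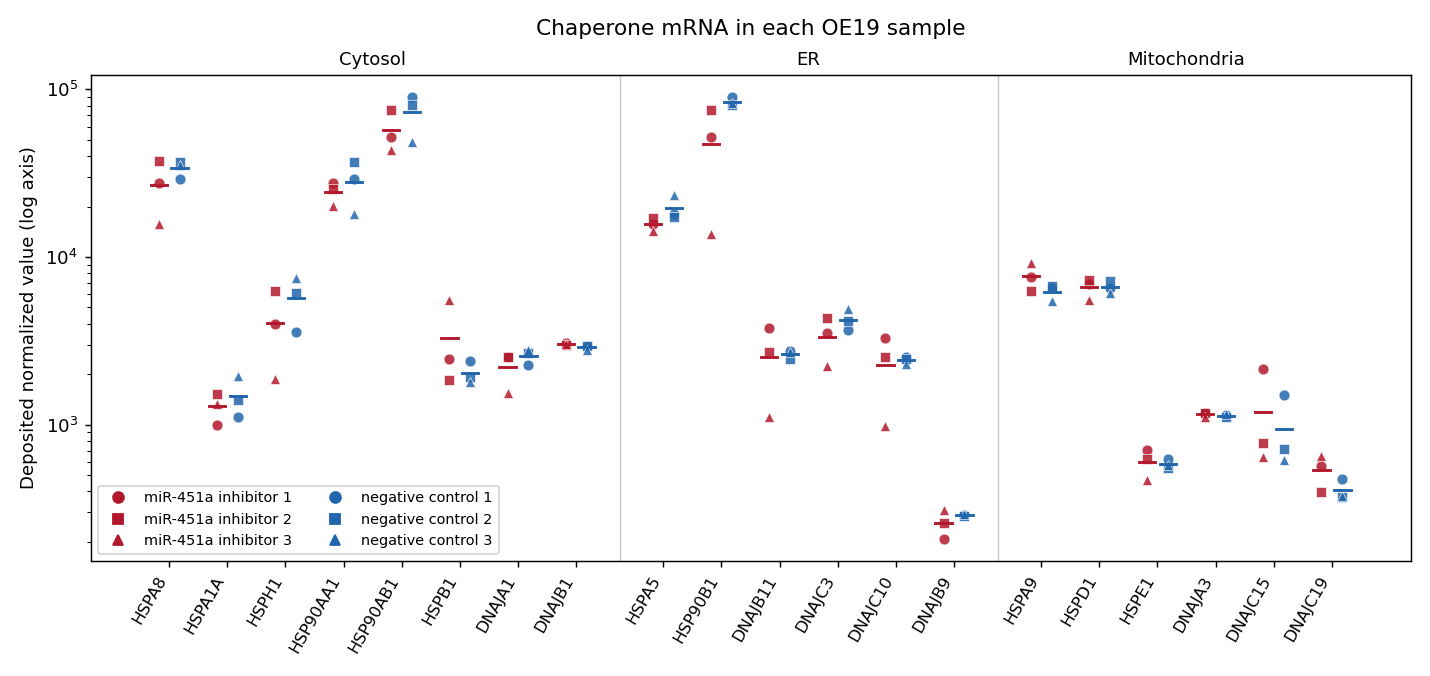
Normalized value (log axis) of 20 chaperone genes in each sample, with the 3 inhibitor samples in red left of the 3 negative controls in blue, symbols for the experiment and lines for group means. HSP90B1, DNAJB11 and DNAJC10 have their lowest value in inhibitor sample 3, and HSPB1 its highest.

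The CCT complex, also called TRiC, is the cytosolic chaperonin that folds actin and tubulin, and each of its 8 subunits comes from its own gene. CCT3 had 9373, 6459 and 5083 in the inhibitor samples, against 6749, 6037 and 5834 in the controls. CCT2 had 4195, 3591 and 2027 in the inhibitor samples, against 3652, 3315 and 3024 in the controls. CCT6A, the most abundant subunit gene, had 9971, 7896 and 5402 in the inhibitor samples, against 8962, 7916 and 7069 in the controls. In each of these genes inhibitor sample 1 was the highest and inhibitor sample 3 the lowest of all 6 samples. Within experiment 1 the inhibitor sample was higher in 8 of 8 subunit genes with a median log2 difference of 0.20, where 51.1% of all genes were higher. Within experiment 2 it was higher in 5 of 8 with a median of 0.03, and within experiment 3 in 1 of 8, CCT8, with a median of -0.29. The 8 log2 differences over all samples lay between -0.09 (CCT2) and 0.12 (CCT3), 4 above 0 and 4 below. All 8 were above 0 without inhibitor sample 3, where the median was 0.15. CCT4, CCT8 and TCP1 varied least, with 3517 to 4311, 3572 to 4212 and 2043 to 2704 in the inhibitor samples, against 3598 to 4048, 3492 to 3990.1 and 2071 to 2357 in the controls. CCT5 and CCT7 had 1760.2 to 3055 and 3247 to 5388 in the inhibitor samples, against 2473 to 2679.9 and 4408 to 4711 in the controls. CCT6B, the testis form of CCT6A, had values of 5.06 to 8.3 in the inhibitor samples, against 1.03 to 8.54 in the controls, and was not tested. Prefoldin hands unfolded actin and tubulin to CCT. The log2 difference was above 0 in 6 of 6 prefoldin genes tested, where 49.4% of all genes were above 0. The median was 0.09 and the smallest value 0.007 (PFDN2). Without inhibitor sample 3, 5 of the 6 were above 0. PFDN1, with 756, 616 and 857 in the inhibitor samples against 585, 567 and 567 in the controls, had a limma adjusted p of 0.899.

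**Figure D3:**
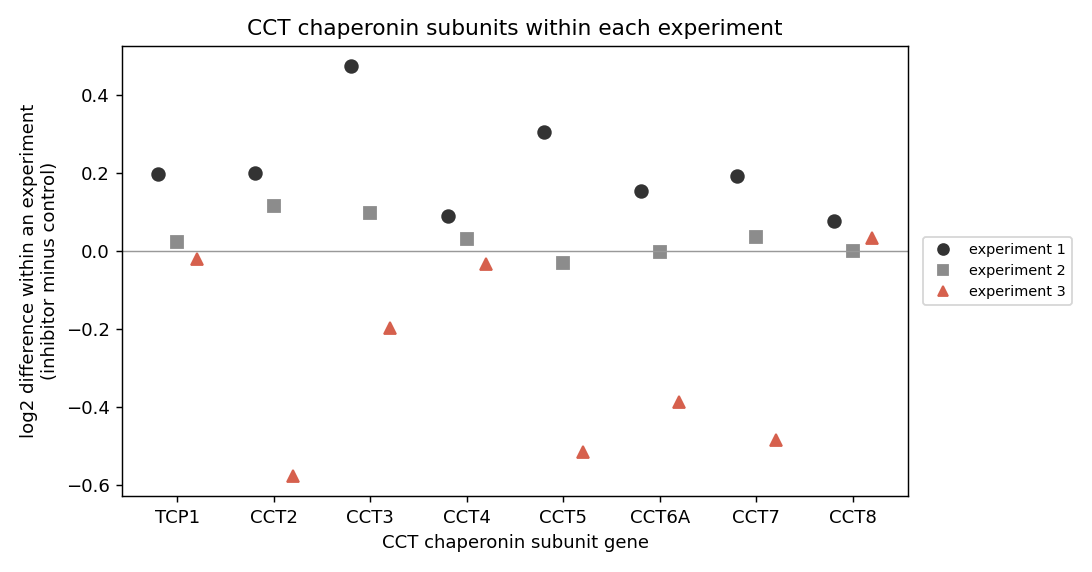
Log2 difference, inhibitor minus control, within each of the 3 experiments for the 8 CCT subunit genes tested. All 8 points of experiment 1 lie above 0, and those of experiment 3 lie between -0.58 (CCT2) and 0.03 (CCT8).

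Most ER chaperones had a log2 difference below 0. Of 14 genes tested, 3 lay above the controls on average and 11 below, and the median log2 difference was -0.20, against -0.03 for the cytosolic, 0.03 for the mitochondrial, -0.04 for the vesicle and endosome genes and -0.00 for all genes. No ER gene passed the limma test. Without inhibitor sample 3 the ER median was -0.07, with 6 of 14 higher, and the vesicle and endosome median of 3 genes was -0.15. In the single samples, the median deviation of the ER genes from the control mean was -0.20, 0.04 and -0.46 in inhibitor samples 1, 2 and 3, against -0.00, -0.06 and 0.03 in negative controls 1, 2 and 3. The difference between compartments was not tested.

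HSP90B1, the ER form of HSP90 known as GRP94 (chromosome 12, 103930410 to 103947926), ranked 11 by mean value, the highest of all chaperone genes. HSP90AB1, ranked 12, had the same values in both samples of experiments 1 and 2, so their order rests on experiment 3. HSP90B1 had 52019, 75479 and 13649.9 in the inhibitor samples, against 90232, 80468 and 83268 in the controls. The 3 controls and inhibitor sample 2 were at the top step of the scale, inhibitor sample 1 at the second and inhibitor sample 3 at the tenth. The groups did not overlap, but 75479 against 80468 in experiment 2 are the top values of those samples, each shared by 15 genes, and differences within the top step cannot be seen. Mean values were 47049 ± 31213 in inhibitor and 84656 ± 5028 in control samples (SD, n = 3 each), and the log2 difference of -1.17 ± 0.63 (SE, limma adjusted p 0.899) was -0.43 without inhibitor sample 3. HSPA5, the ER HSP70 known as BiP (chromosome 9, 125234853 to 125241343), had 15661, 17141 and 14275 in the inhibitor samples, against 18112, 17308 and 23406 in the controls. The groups did not overlap, but in experiment 2 both values stood at the same step, and control 3 was the highest. The log2 difference of HSPA5 was -0.31 ± 0.22 (SE, limma adjusted p 0.899), and -0.25 without inhibitor sample 3. These are the 2 genes whose windows hold the ER stress element.

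The ER partners of BiP differed among themselves. DNAJB11, a soluble J-domain protein that binds unfolded clients, had 3768, 2710.1 and 1112 in the inhibitor samples, against 2732, 2459 and 2712 in the controls. DNAJC10, which reduces disulphide bonds of proteins bound for degradation, had 3303, 2546 and 979 in the inhibitor samples, against 2543, 2457 and 2304 in the controls. Both genes were highest in inhibitor sample 1 and lowest in inhibitor sample 3, so that their log2 differences of -0.23 and -0.27 became 0.28 and 0.25 without inhibitor sample 3. DNAJC3, a luminal co-chaperone of BiP known as p58IPK, had 3507, 4302 and 2253 in the inhibitor samples, against 3652, 4137 and 4866 in the controls, with a log2 difference of -0.37 ± 0.25 (SE), or -0.11 without inhibitor sample 3. DNAJB9, an early target of the unfolded protein response, had 209, 258 and 310.3 in the inhibitor samples, against 289, 286 and 293 in the controls. It was slightly higher with the inhibitor within experiment 3 (log2 difference 0.09). Over all samples its log2 difference was -0.18, or -0.32 without inhibitor sample 3. HSPA13, a minor HSP70 of the ER, had 186, 249.96 and 283 in the inhibitor samples, against 208, 224 and 281 in the controls.

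DNAJB12 and DNAJB14 are ER membrane proteins whose J domain faces the cytosol. DNAJB14 had 425, 444 and 287 in the inhibitor samples, against 465, 460.4 and 452 in the controls, without overlap, and a log2 difference of -0.28 ± 0.19 (SE, limma adjusted p 0.899), or -0.08 without inhibitor sample 3. DNAJB12 had 496, 529 and 683 in the inhibitor samples, against 544, 485 and 505 in the controls. DNAJC1, another J-domain protein of the ER membrane, was higher in each experiment, with 613, 636 and 651 in the inhibitor samples, against 533, 626 and 579.8 in the controls. DNAJC18 was low and variable, with 12.4, 21.3 and 4.15 in the inhibitor samples, against 17.2, 7.48 and 23.8 in the controls. The other 3 ER genes, DNAJC14, DNAJC16 and DNAJC25, had log2 differences of -0.06, -0.17 and -0.13, or -0.21, -0.05 and 0.05 without inhibitor sample 3.

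Genes of ER protein folding outside the symbol rule were read from a list of lectin chaperones, disulphide isomerases and unfolded protein response targets. Of 17 tested, 5 lay above the controls on average and 12 below, 0 passed the limma test, and the median log2 difference was -0.19. Within experiment 3 the inhibitor sample was higher in 3 of 17, against 11 of 17 in experiment 1 and 12 of 17 in experiment 2, and the median was 0.02 without inhibitor sample 3. CANX, the membrane lectin calnexin, was the gene of this list with the smallest p. It had 10973, 12338 and 10294 in the inhibitor samples, against 14763, 14223 and 12617 in the controls. Its groups did not overlap, as in the 2.9% of all genes that lay below the controls. The log2 difference of CANX was -0.31 ± 0.18 (SE, limma adjusted p 0.899), or -0.25 without inhibitor sample 3. MANF, a secreted factor of the ER stress response, had 1241, 1362 and 661 in the inhibitor samples, against 1280.0, 1285 and 1628 in the controls. DDIT3, the stress transcription factor CHOP, had 415, 391 and 830 in the inhibitor samples, against 445, 366 and 384 in the controls. Inhibitor sample 3 held the highest value of DDIT3 and of HERPUD1 from the same list (2972). In this list it held the lowest value of CANX, MANF, CALR, PDIA4, CRELD2, HYOU1, SDF2L1, PPIB, PDIA3, PDIA6, ERO1L and XBP1. Among the ER chaperone genes it was highest in DNAJB9 (310.3), DNAJB12, DNAJC1, DNAJC14 and HSPA13. It was lowest in HSP90B1, HSPA5, DNAJB11, DNAJC10, DNAJC3, DNAJB14, DNAJC16, DNAJC18 and DNAJC25.

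**Figure D4:**
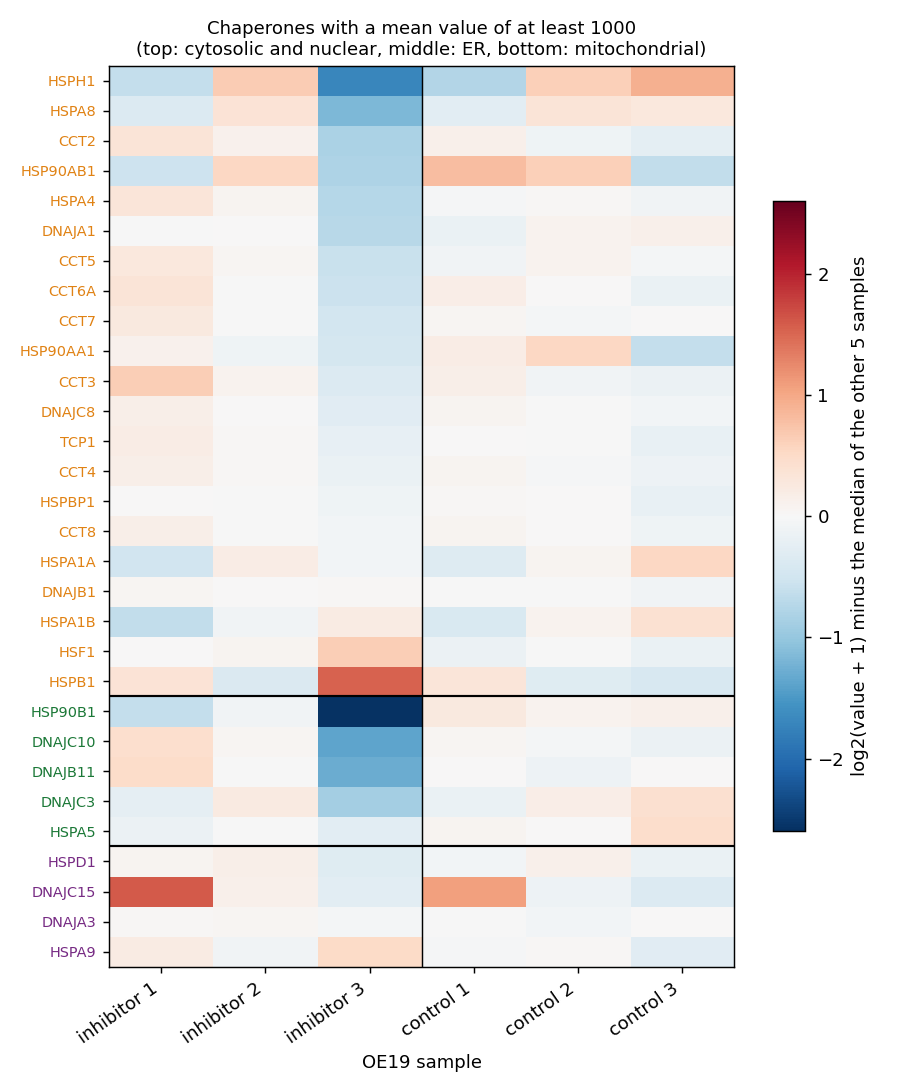
Colour gives log2(value + 1) minus the median of the other 5 samples for the 30 cytosolic, ER and mitochondrial chaperone genes that averaged 1000 or more, inhibitor samples left and negative controls right. Inhibitor sample 3 is the bluest column, from -2.56 in HSP90B1 to 1.54 in HSPB1.

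In mitochondria, HSPA9 is the matrix HSP70 that pulls imported proteins through the membrane and folds them, and HSPD1 with its lid HSPE1 forms the chaperonin HSP60/HSP10. HSPA9 had 7602, 6301 and 9271 in the inhibitor samples, against 6557, 6684 and 5441 in the controls. Its 2 highest values were of inhibitor samples, but inhibitor sample 2 lay within the controls, and the log2 difference was 0.30 ± 0.19 (SE, limma adjusted p 0.899), or 0.16 without inhibitor sample 3. HSPD1 had 6915, 7271 and 5567 in the inhibitor samples, against 6561, 7228 and 6095 in the controls. HSPE1, which lies head to head with HSPD1 on chromosome 2 (197500379 to 197503449 and 197486584 to 197500274), had 703, 625 and 468 in the inhibitor samples, against 625, 549 and 576 in the controls. Both genes were lowest in inhibitor sample 3, and their log2 differences were -0.02 ± 0.17 for HSPD1 and 0.02 ± 0.17 for HSPE1 (SE).

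Among the mitochondrial J-domain genes, DNAJC19 and DNAJC15 belong to the import motor. DNAJC19 had 566, 398 and 654 in the inhibitor samples, against 473, 371 and 375 in the controls. It was higher with the inhibitor in each experiment, with a log2 difference of 0.39 ± 0.21 (SE, limma adjusted p 0.899), and 0.23 without inhibitor sample 3. DNAJC15 followed the experiment, with 2156, 781 and 645 in the inhibitor samples, against 1499, 711 and 614 in the controls. Experiment 1 was more than 2-fold above the others in both groups. DNAJA3, the J-domain partner of HSPA9, was nearly constant, with 1173, 1177 and 1112 in the inhibitor samples, against 1141, 1104 and 1152 in the controls. DNAJC11, of the outer membrane, was lower in each experiment, with 808, 961 and 695 in the inhibitor samples, against 944, 983 and 929 in the controls. DNAJC28 had 23.7, 35.4 and 10.4 in the inhibitor samples, against 27.1, 41.7 and 30.0 in the controls, and DNAJC30 had 191 to 229 in the inhibitor samples, against 160.2 to 218 in the controls. Of the 9 mitochondrial genes, 6 were higher and 3 were lower, and the median log2 difference was 0.03.

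Mitochondrial folding and protease genes outside the rule gave 5 higher and 6 lower of 11 tested, with a median of -0.03. CLPB, a disaggregase, had 341, 575 and 227 in the inhibitor samples, against 411, 578 and 535 in the controls. YME1L1, a protease of the inner membrane, had 2924, 2708 and 3902 in the inhibitor samples, against 2938, 2597 and 2457 in the controls. Cytosolic co-chaperones gave 10 higher and 7 lower of 17 tested, with a median of 0.09. CHORDC1, a heat-inducible partner of HSP90, had 928, 1157 and 192 in the inhibitor samples, against 924, 1188 and 1280 in the controls, whereas ST13, which binds HSP70, had 4905, 4081 and 6425 in the inhibitor samples, against 4032, 4371 and 3266 in the controls. In these lists, too, 0 genes passed the limma test.

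The other 16 cytosolic genes had log2 differences between -0.23 (DNAJC24) and 0.47 (DNAJB4). The vesicle and endosome genes DNAJC5, DNAJC13 and DNAJC27, of which DNAJC5 is a co-chaperone of exocytosis, had log2 differences of -0.10, -0.04 and 0.04. The 5 unplaced genes, DNAJC22, DNAJC4, HSPBAP1, HSPB11 and HSPA12A, lay between -0.25 and 0.24.

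In inhibitor sample 3 alone, 11 of the 71 chaperone genes (15.5%) differed over 2-fold from the median of the remaining 5 samples, against 16% of all genes. HSPB1, HSPA4L and HSPA1L were above, which is 4.23% of the 71 against a background of 8.57%. HSP90B1, DNAJB11, DNAJC10, DNAJC18, HSPA8, HSPH1, DNAJB13 and DNAJC28 were below, which is 11.3% of the 71 against a background of 7.4%. Of these 8, HSP90B1, HSPA8, HSPH1, DNAJB11 and DNAJC10 had a mean value of at least 1000. In inhibitor samples 1 and 2, 2 chaperone genes each (2.82%) lay that far from the rest, against 3.4% and 2.41% of all genes. In controls 1, 2 and 3 the counts were 2, 2 and 1 (2.82%, 2.82% and 1.41%), against 2.09%, 2.04% and 4.16% of all genes. All chaperone genes were also read within the experiments, where the inhibitor sample was higher in 41, 38 and 30 of the 71 in experiments 1, 2 and 3, against 51.1%, 49.2% and 49.7% of all genes.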

How the data were processed

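Messenger RNA of 6 OE19 samples, 3 per group, was sequenced by the authors from stranded libraries. Their processing notes name cutadapt 1.8, FastQC 0.11.8, STAR 2.7.0f and GRCh38, and their methods take that genome from Gencode. The counting tool is not named there. What the authors deposited is a normalized signal for each gene, corrected by EDASeq for length and GC content inside a sample and then scaled across samples by DESeq2. Dividing each sample by its smallest step gave whole numbers for 100% of values within 1e-06, and these served as counts for edgeR 4.0.16 and DESeq2 1.42.0. Since the adjustment sets many genes to shared values, they are not raw reads.

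The comparison used limma 3.58.1 in R 4.3.3 on log2(value + 1), for 12723 of 13345 genes with a mean of at least 10, with a trend in the variance and Benjamini-Hochberg adjustment at 0.05. The study itself used a Mann-Whitney test, whose exact form cannot go below a p of 0.1 with 3 against 3 samples. Whether the exact form was used is not stated. The column headers give the sample number as an independent experiment, which was read as a pairing. The main fit was unpaired, and the pairing entered only the replicate block and the differences within experiments. Deviations from the group means correlated at 0.21, 0.15 and -0.00 between samples of the same number. P-values of the main fit measure the spread between samples within a group, which come from different experiments.

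Named genes were those with a leading role, those with the smallest p in each compartment, those whose groups did not overlap, those with a sample over 2-fold from the median of the other 5, and up to 3 of each outside list. ER folding genes in which inhibitor sample 3 was the highest or the lowest of all samples were also named. Members and lists were chosen with earlier results of these data known. The fit was tested on simulated data. Alternatives were a pseudocount of 10, no minimum, a minimum of 50, TMM rescaling, a replicate block, array weights, leaving out each sample, edgeR, DESeq2 and an exact Mann-Whitney test. Positions and promoter windows are from RefSeq, and 72 of 73 genes had a position.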

Additional observations from a re-analysis of the deposited data

How the results depend on the processing

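Under each of 15 alternatives 0 chaperone genes were called, and the smallest adjusted p of a named gene over them was 0.468. With the replicate block 0 chaperone genes were called and it changed no call. At an unadjusted p below 0.05 the count of chaperone genes was 0, against 1 with array weights and 0 to 7 when a sample was left out. It was 7 (9.86%, against 10.7% of all genes) without inhibitor sample 2 and 1 (1.41%, against 1.41% of all genes) without inhibitor sample 3. Over all genes the same count was 119, against 76 with a minimum mean of 50, 315 with array weights, 250 with DESeq2, 0 with the exact Mann-Whitney test and 43 to 1360 when a sample was left out. Of 655 pairs of a named gene and an alternative, 607 kept the direction and 48 reversed it, in 23 of the 44 genes tested. With array weights the log2 difference turned to 0.14 for HSPA4, 0.16 for CCT2, 0.081 for CCT5, 0.12 for CCT6A, 0.11 for CCT7, -0.071 for HSPA13, 0.25 for DNAJB11, 0.16 for DNAJC10, 0.0069 for HSPD1, 0.44 for DNAJC18, -0.018 for HSPA4L and 0.44 for HSPB9. TMM rescaling gave -0.0059 for HSPA13, and HSPA1L turned to 0.0098 with edgeR and 0.016 with DESeq2. When a sample was left out, the log2 difference ran from -0.38 to 0.018 for HSPA1A, -0.35 to 0.053 for HSPA1B, -0.31 to 0.21 for HSPA4, -0.44 to 0.076 for HSP90AA1, -0.30 to 0.22 for CCT2, -0.11 to 0.33 for CCT3, -0.040 to 0.11 for CCT4, -0.25 to 0.15 for CCT5, -0.28 to 0.16 for CCT6A, -0.25 to 0.12 for CCT7, -0.029 to 0.0896 for CCT8, -0.030 to 0.17 for TCP1, -0.13 to 0.17 for HSPA13, -0.60 to 0.28 for DNAJB11, -0.62 to 0.25 for DNAJC10, -0.092 to 0.10 for HSPD1, -0.11 to 0.19 for HSPE1, -0.29 to 0.64 for DNAJC15, -0.018 to 0.20 for DNAJC30, -0.91 to 0.14 for DNAJC18, -0.025 to 0.94 for HSPA4L and -0.86 to 0.37 for HSPB9. The cause was not tested. The median log2 difference of the ER genes stayed below 0 under each alternative that gives a fold, from -0.33 without inhibitor sample 2 to -0.05 with array weights, while the medians of the cytosolic genes (-0.06 to 0.08) and the mitochondrial genes (-0.06 to 0.10) lay on both sides of 0. With 3 samples per group and one of them apart, small differences were not detectable. Large ones were not called either, as the log2 differences over all 12723 genes ran from -2.81 to 3.08. A gene without a call is therefore not shown to be unchanged.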
